A study of Mus musculus with 31 samples.

Results

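The 10 Toll-like receptor genes described here are Tlr1 to Tlr9 and Tlr13, taken by gene symbol from the 54532 rows of the microglial count table and by the same Ensembl identifier from the 48795 rows of the hippocampal table. The series holds 31 libraries in 2 experiments. Primary microglia, the resident macrophages of the brain, were grown from the cortices of newborn Cgas+/+ or Cgas-/- pups in mixed glial culture with granulocyte–macrophage colony-stimulating factor and then shaken off and replated. Per the study's methods the cells stood for 6 h with vehicle, with 0N4R tau fibrils at 2 μg per ml or with herring testis DNA (HT-DNA) at 1 μg per ml, with 3 libraries in each of the 6 groups. Cgas encodes cGAS, the cytosolic DNA sensor that signals through STING, and the Cgas-/- cells lacked functional copies of it. The hippocampi came from 8- to 9-month-old mice, of which 6 carried the P301S human tau transgene (3 female, 3 male) and 7 were non-transgenic (Ntg; 3 female, 4 male). The microglial replicates are described in the study as biologically independent samples. The sources used here name neither the promoter of the transgene nor the sex of the pups.

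Toll-like receptors are membrane proteins whose leucine-rich ectodomain binds microbial or endogenous ligands and whose cytoplasmic TIR domain recruits the adaptors MyD88 or TRIF, leading to NF-κB and interferon regulatory factor activity. The receptors of the cell surface bind bacterial products (Tlr2 with Tlr1 or Tlr6, lipoproteins; Tlr4, lipopolysaccharide; Tlr5, flagellin), and those of the endosome bind nucleic acids (Tlr3, double-stranded RNA; Tlr7 and Tlr8, single-stranded RNA; Tlr9, CpG DNA; Tlr13, bacterial ribosomal RNA). In the brain, microglia are the cells best known for expressing them, and several of these genes are known to respond to interferon or NF-κB.

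Libraries held 17037459 to 25174764 counts in microglia and 25953296 to 35779977 in hippocampi. The labels were checked on their target genes. Cgas stood at 18.8 to 27.2 CPM (the count of a gene relative to the library total, scaled by the trimmed mean of M values) in Cgas+/+ microglia with vehicle and at no more than 7.45 CPM in any Cgas-/- group, and Mapt stood at 519 to 642 CPM in Ntg and 858 to 1125 CPM in P301S hippocampi. The 10 microglia markers summed to 6274 to 6603 CPM over the Cgas+/+ libraries of the 3 treatments and to 4178 to 4693 CPM over the Cgas-/- libraries, with none of the 10 at 0 in any group. Defining markers of neurons summed to at most 1.81 CPM and those of astrocytes to at most 13.7 CPM in any microglial library. Xist stood at 467 to 520 CPM in Cgas+/+ and 255 to 269 CPM in Cgas-/- libraries with vehicle, and the Y-linked Ddx3y at 23.3 to 26.3 CPM and 52.9 to 57.5 CPM. Genotype and the mix of female and male pups therefore cannot be told apart, which bears on Tlr7, Tlr8 and Tlr13, all on chromosome X.

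Promoter sequences are shown for the 4 genes with the largest fold changes after either stimulus in Cgas+/+ microglia, since these are the members whose levels moved most. They are RefSeq sequences of build GRCm38.p6 and run from 250 bases before to 50 bases after the annotated start, written in the direction of the gene. Capitals mark matches, on either strand, to the ISRE core GAAANNGAA, to GAS TTCNNNGAA, to the NF-κB consensus or to the PU.1 core GAGGAA, which are sequences bound by interferon-activated factors, by STAT dimers, by NF-κB and by a myeloid factor.
Tlr3, chr8:45410331-45410630, minus strand: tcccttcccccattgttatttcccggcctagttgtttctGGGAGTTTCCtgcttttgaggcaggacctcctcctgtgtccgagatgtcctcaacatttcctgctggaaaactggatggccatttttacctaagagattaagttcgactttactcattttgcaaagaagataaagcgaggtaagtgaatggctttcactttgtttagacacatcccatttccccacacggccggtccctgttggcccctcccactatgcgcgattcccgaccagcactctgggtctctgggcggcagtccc
Tlr2, chr3:83841559-83841858, minus strand: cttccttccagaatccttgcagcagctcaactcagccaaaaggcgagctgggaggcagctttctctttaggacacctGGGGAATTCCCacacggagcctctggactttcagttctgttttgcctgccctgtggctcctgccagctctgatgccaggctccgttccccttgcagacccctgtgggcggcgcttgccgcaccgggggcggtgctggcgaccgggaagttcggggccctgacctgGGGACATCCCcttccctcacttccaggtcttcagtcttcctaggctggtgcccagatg
Tlr9, chr9:106222348-106222647, plus strand: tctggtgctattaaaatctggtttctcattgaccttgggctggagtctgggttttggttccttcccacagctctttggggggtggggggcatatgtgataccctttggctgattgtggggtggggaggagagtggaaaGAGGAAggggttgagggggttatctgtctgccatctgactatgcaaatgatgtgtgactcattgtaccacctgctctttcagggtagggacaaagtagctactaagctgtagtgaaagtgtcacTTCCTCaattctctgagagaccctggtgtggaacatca
Tlr1 (start 1), chr5:64933509-64933808, minus strand: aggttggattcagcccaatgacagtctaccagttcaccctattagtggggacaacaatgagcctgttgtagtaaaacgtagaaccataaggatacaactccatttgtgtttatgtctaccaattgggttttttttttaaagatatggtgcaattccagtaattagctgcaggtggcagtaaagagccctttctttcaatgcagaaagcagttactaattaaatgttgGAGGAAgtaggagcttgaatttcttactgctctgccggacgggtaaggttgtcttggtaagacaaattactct
Tlr1 (start 2), chr5:64932650-64932949, minus strand: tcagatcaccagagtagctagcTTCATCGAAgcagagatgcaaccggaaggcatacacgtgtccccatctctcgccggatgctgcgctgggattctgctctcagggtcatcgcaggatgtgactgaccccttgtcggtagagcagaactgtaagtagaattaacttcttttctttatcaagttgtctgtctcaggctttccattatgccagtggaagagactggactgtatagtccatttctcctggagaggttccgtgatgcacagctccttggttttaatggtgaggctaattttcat
The Tlr3 window held an NF-κB consensus match 211 bases before the start, and the Tlr2 window held such matches from 173 and from 8 bases before the start, with matches on both strands that overlap each other. The Tlr3 window lies inside the span that the gene annotation gives for Tlr3 (chr8:45395665-45411080). The 5′ end of that span was therefore not searched. The Tlr9 window held PU.1 cores 112 bases before and 12 bases after the start. The first Tlr1 window held a PU.1 core 23 bases before its start and the second a GAS match 228 bases before its start. Of 32851 promoter windows in the table, 8.46% held the NF-κB consensus, 28.28% the PU.1 core, 8.3% GAS and 8.56% the ISRE core, so each of these motifs is common. The table held windows for 8 of the 10 members. Of those not shown, the Tlr6 windows held ISRE and GAS matches, Tlr8 held ISRE, GAS and PU.1 matches, Tlr13 held a PU.1 core and Tlr5 held no match.

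Resting Cgas+/+ microglia had most of the family. Tlr13, Tlr2 and Tlr7 led at 68.3, 62.1 and 52.6 CPM per kb of merged exon (group means), followed by Tlr8 at 19.5, Tlr4 at 10.97, Tlr3 at 7.61, Tlr9 at 5.47, Tlr6 at 4.34 and Tlr1 at 3.21 CPM per kb. Ordered by CPM without length, as would suit the tag-based 3′ library kit that the labels name, Tlr7 and Tlr2 changed places and the order was otherwise the same. Tlr5 (chr1:182954788-182976044) had at most 3 counts in any microglial library and was not tested there, which is no more than the limit that a count of 0 allows. The other 9 members were among the 13675 genes tested. The plot of members' levels by library shows 2 main kinds of profile, in which Cgas+/+ cells with tau fibrils or with HT-DNA had the highest level. Tlr4 followed neither, with its highest mean in Cgas-/- cells with HT-DNA (80.9 CPM) and its lowest in Cgas+/+ cells with HT-DNA (59.9 CPM). For Tlr6 the tau and HT-DNA libraries of Cgas+/+ cells overlapped.

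**Figure D1:**
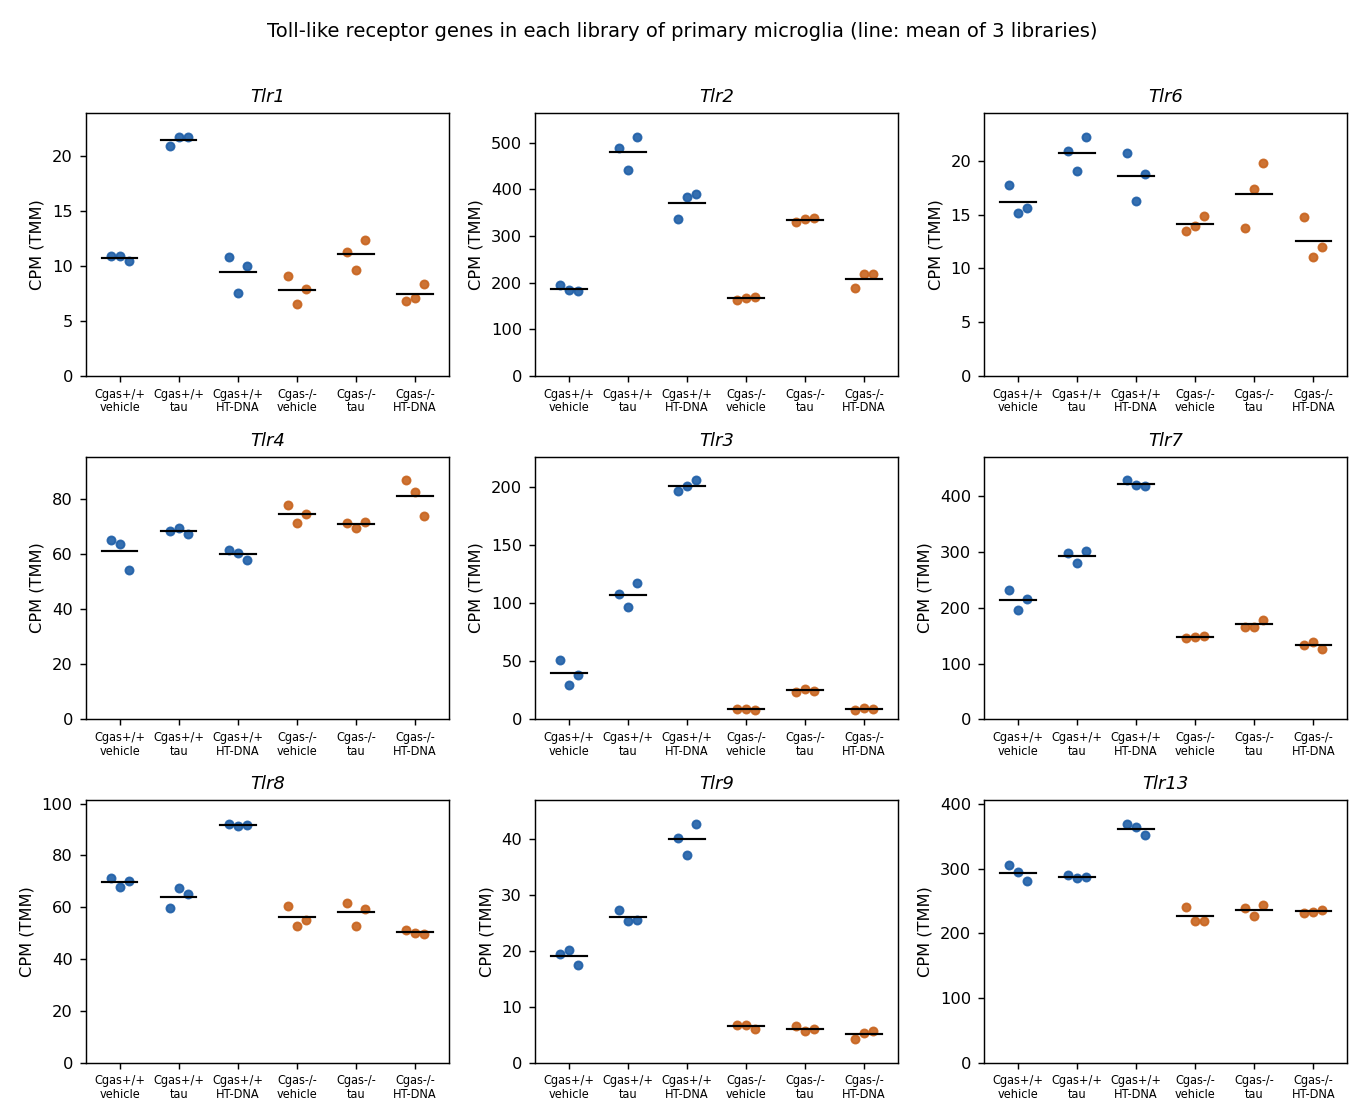
CPM (TMM-scaled) of 9 Toll-like receptor genes in each of 18 primary microglial libraries, with vehicle, tau fibrils or HT-DNA in Cgas+/+ (blue) and Cgas-/- (orange) cells; points are libraries and black lines are means of 3. Tlr1 and Tlr2 were highest in Cgas+/+ cells with tau fibrils, and Tlr3, Tlr7, Tlr8, Tlr9 and Tlr13 in Cgas+/+ cells with HT-DNA.

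The first comparison asked how tau fibrils changed these receptors in Cgas+/+ microglia. Of the 9 members tested, 7 rose and 0 fell, against 15.8% of all genes tested that rose and 12.2% that fell, and the members' median log2 fold change was 0.45 against -0.01 for all genes. The members that rose by the widest margins were Tlr3, Tlr2 and Tlr1, and Tlr7, Tlr9, Tlr6 and Tlr4 rose less. HT-DNA, which is a direct cGAS ligand, raised 6 of the 9 and lowered 0, against 22.8% and 24.7% of all genes, with a median of 0.40 against -0.03 for all genes. Tlr3, Tlr9, Tlr2, Tlr7, Tlr8 and Tlr13 rose with HT-DNA, whereas Tlr1, Tlr6 and Tlr4 did not pass the test. Calls are from edgeR's quasi-likelihood test with Benjamini-Hochberg adjustment across every gene tested and a threshold of 0.05, and the tau and HT-DNA contrasts share the 3 vehicle libraries.

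Among the cell-surface receptors, Tlr2 (chr3:83836272-83841767), the partner that Tlr1 and Tlr6 share, was measured at 195, 185 and 182 CPM with vehicle, at 488, 440.3 and 512 CPM with tau fibrils and at 336, 384 and 389 CPM with HT-DNA. The 3 ranges did not overlap, with tau fibrils highest and vehicle lowest. The log2 fold change was 1.36 ± 0.058 (SE; adjusted p = 4.08e-16, edgeR) for tau fibrils and 0.98 ± 0.058 (adjusted p = 3.55e-14) for HT-DNA, and the direct contrast of tau fibrils with HT-DNA was 0.38 ± 0.057 (adjusted p = 5.44e-06). Tlr1 (chr5:64924679-64933563), which pairs with Tlr2 on triacylated lipoproteins, was at 10.9, 10.9 and 10.47 CPM with vehicle, 20.9, 21.7 and 21.7 CPM with tau fibrils and 10.8, 7.54 and 9.995 CPM with HT-DNA. All 3 tau libraries stood well above all others, and the HT-DNA libraries overlapped vehicle. Tlr1 rose 1.99-fold with tau fibrils (log2 0.99 ± 0.115, adjusted p = 6.58e-08), had a log2 fold change of -0.19 ± 0.13 with HT-DNA (adjusted p = 0.228) and was higher with tau fibrils than with HT-DNA by 1.18 ± 0.12 (adjusted p = 5.65e-09).

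Tlr6 (chr5:64952031-64960097), the partner of Tlr2 for diacylated lipoproteins, ranged from 15.1 to 17.7 CPM with vehicle, 19.1 to 22.2 CPM with tau fibrils and 16.3 to 20.8 CPM with HT-DNA. Its tau libraries lay above vehicle by little, at log2 0.36 ± 0.115 (adjusted p = 0.0202), and that call was lost without replicate 2 or 3 of the vehicle group (adjusted p = 0.0847 and 0.0612) or replicate 3 of the tau group (adjusted p = 0.101). Its HT-DNA value was 0.20 ± 0.12 (adjusted p = 0.167). Tlr1 and Tlr6 start 0.027 Mb apart, and 15.26% of the 50-base stretches of the Tlr1 transcript also occur in Tlr6, so their counts are uncertain where the counting could split such reads. Tlr4 (chr4:66827584-66930284), the lipopolysaccharide receptor, was at 64.96, 63.6 and 54.3 CPM with vehicle, 68.3, 69.5 and 67.2 CPM with tau fibrils and 61.4, 60.3 and 57.8 CPM with HT-DNA. The tau libraries lay just above vehicle, at log2 0.16 ± 0.060 (adjusted p = 0.0445), and this call was lost in DESeq2 (adjusted p = 0.0502), with no filter on low counts (0.0537), when other groups were left out of the fit (0.0656) and without any of 4 single libraries, among them replicate 3 of vehicle (log2 0.09, adjusted p = 0.314). With HT-DNA its value was -0.03 ± 0.061 (adjusted p = 0.73).

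Of the endosomal receptors, Tlr3 (chr8:45395665-45411080), which binds double-stranded RNA and signals through TRIF, was at 51.2, 29.2 and 38.5 CPM with vehicle, 108, 97.3 and 117 CPM with tau fibrils and 197, 201 and 206 CPM with HT-DNA. Vehicle replicate 1 was the highest of its group, and the 3 groups still did not overlap. Tlr3 rose 2.71-fold with tau fibrils (log2 1.44 ± 0.10, adjusted p = 9.04e-12) and 5.08-fold with HT-DNA (log2 2.34 ± 0.10, adjusted p = 8.09e-17), and was lower with tau fibrils than with HT-DNA by log2 -0.90 ± 0.095 (adjusted p = 1.32e-08). Tlr3 shares 381 exon bases with Gm45542 on the opposite strand, and whether the counting used strand is not given in the sources used here. Tlr9 (chr9:106222598-106226883), the receptor for CpG DNA, was at 19.5, 20.1 and 17.5 CPM with vehicle, 27.2, 25.3 and 25.6 CPM with tau fibrils and 40.3, 37.1 and 42.8 CPM with HT-DNA. Its 3 groups were likewise apart, with log2 fold changes of 0.45 ± 0.084 (adjusted p = 0.000114) for tau fibrils and 1.07 ± 0.082 (adjusted p = 8.65e-12) for HT-DNA.

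Tlr7 (chrX:167304929-167330558), a receptor for single-stranded RNA, was at 232, 196 and 216 CPM with vehicle, 299, 281 and 302 CPM with tau fibrils and 428, 421 and 418 CPM with HT-DNA. It followed the same order without overlap, at 0.45 ± 0.049 (adjusted p = 2.01e-08) and 0.98 ± 0.049 (adjusted p = 1.2e-15) on the log2 scale. Its neighbour Tlr8 (chrX:167242696-167264329), which starts 0.062 Mb away, was at 71.4, 67.7 and 70.1 CPM with vehicle, 59.7, 67.3 and 65.1 CPM with tau fibrils and 92.2, 91.2 and 91.8 CPM with HT-DNA. The HT-DNA libraries stood above all others and the tau libraries just below vehicle. Tlr8 rose with HT-DNA (log2 0.40 ± 0.055, adjusted p = 8.4e-07), and its tau value of -0.12 ± 0.057 did not pass the test (adjusted p = 0.117). Tlr13 (chrX:106143204-106160493), which recognizes bacterial ribosomal RNA, was at 306, 295 and 281 CPM with vehicle, 289.7, 286 and 286 CPM with tau fibrils and 369.5, 365 and 351 CPM with HT-DNA. Only the HT-DNA libraries stood apart, with a log2 fold change of 0.30 ± 0.043 (adjusted p = 1.19e-06) against -0.03 ± 0.043 for tau fibrils (adjusted p = 0.638).

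Compared directly in Cgas+/+ cells, 3 members were higher with tau fibrils than with HT-DNA and 5 were lower, against 17.1% and 17.8% of all genes, with a median of -0.33 against 0.01 over all genes. The 3 that were higher are all cell-surface receptors, namely Tlr1, Tlr2 and Tlr4, and the 5 that were lower are the endosomal receptors tested. Besides Tlr3, these were Tlr9 at -0.62 ± 0.080 (adjusted p = 4.46e-07), Tlr7 at -0.52 ± 0.049 (1.23e-09), Tlr8 at -0.52 ± 0.056 (2.1e-08) and Tlr13 at -0.33 ± 0.043 (4.43e-07). Tlr4, at 0.19 ± 0.061 (adjusted p = 0.0152), lost its call without any of 3 single libraries, and Tlr6 did not pass the test at 0.155 ± 0.115 (adjusted p = 0.33). The difference in direction between surface and endosomal receptors was noticed in these values and was not itself tested. The doses of the stimuli differed, at 2 and 1 μg per ml.

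The other genes of the pathway were counted from a list of 61, of which 58 were tested in microglia. With tau fibrils 29 rose and 3 fell (median log2 0.21), against 15.8% and 12.2% of all genes, and with HT-DNA 31 rose and 4 fell (median 0.27), against 22.8% and 24.7%. The counts by role are read against the same shares. Of the 4 endogenous ligands tested, 1 rose and 1 fell with HT-DNA, which is near them. Among the related receptors Cd180, a homologue without a TIR domain, rose by 0.43 ± 0.051 with tau fibrils and 1.47 ± 0.051 with HT-DNA. Of the adaptors, Myd88 rose with both (0.815 ± 0.067 and 1.14 ± 0.067), Ticam1, which encodes TRIF, rose with HT-DNA (0.61 ± 0.071), and Ticam2, which links Tlr4 to TRIF, rose with tau fibrils (0.20 ± 0.073) and fell with HT-DNA (-0.565 ± 0.079). The Tlr4 co-receptor Cd14 rose by 0.62 ± 0.046 and 0.77 ± 0.046, Ly96, which encodes MD-2, rose with tau fibrils (0.47 ± 0.13), and Ly86 (0.51 ± 0.049) and Cd36 (0.19 ± 0.043) rose with HT-DNA. Unc93b1, the escort that carries the endosomal receptors out of the endoplasmic reticulum, rose by 0.36 ± 0.042 and 0.55 ± 0.043. The receptor-processing protease Lgmn fell with tau fibrils (-0.22 ± 0.039), and with HT-DNA the chaperone Hsp90b1 (0.32 ± 0.042) and the protease Ctss (0.245 ± 0.039) rose.

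Downstream, 8 of the 16 kinases and ubiquitin ligases rose with tau fibrils, led by Ikbke (1.16 ± 0.062), Peli1 (0.95 ± 0.060) and Tbk1 (0.46 ± 0.042), and 9 of 16 rose with HT-DNA, led by Peli1 (1.203 ± 0.060), Tbk1 (0.75 ± 0.042) and Irak2 (0.53 ± 0.055). Ikbke and Tbk1 encode the kinases that phosphorylate interferon regulatory factors. Transcription factors rose in 8 of 10 cases with tau fibrils, led by Irf7 (1.57 ± 0.12), Nfkb2 (0.92 ± 0.055) and Nfkb1 (0.78 ± 0.041), and in 6 of 10 with HT-DNA, led by Irf7 (2.32 ± 0.12), Fos (1.60 ± 0.074) and Irf5 (0.82 ± 0.047). Feedback inhibitors rose as well, 7 of the 9 tested with tau fibrils and 5 with HT-DNA. With HT-DNA 2 of the 9 fell, which is near the 24.7% of all genes that fell. The NF-κB inhibitor Nfkbia (1.25 ± 0.073), Irak3 (1.097 ± 0.082) and Trafd1 (0.99 ± 0.072) led with tau fibrils, and Trafd1 (1.33 ± 0.072) and Socs1 (1.34 ± 0.17) rose with HT-DNA while Il1rl1 fell (-1.37 ± 0.37). Of the endogenous ligands Hmgb1 fell with both (-0.25 ± 0.047 and -0.32 ± 0.047), Bgn fell with tau fibrils (-1.36 ± 0.51) and Tnc rose with HT-DNA (2.25 ± 0.43).

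In Cgas-/- microglia, tau fibrils raised 4 of the 9 members and lowered 0, against 11.2% and 5.48% of all genes (median 0.20 against 0.01). Tlr3 was at 8.88, 8.97 and 8.23 CPM with vehicle and at 23.7, 26.5 and 24.8 CPM with tau fibrils, so the groups were far apart, and the log2 fold change was 1.53 ± 0.145 (adjusted p = 2.17e-09). Tlr2 was at 164, 167 and 169.9 CPM with vehicle and at 329.6, 336 and 339 CPM with tau fibrils, a rise of 1.01 ± 0.058 (adjusted p = 8.31e-14). Tlr1, at 6.52 to 9.04 CPM with vehicle and 9.63 to 12.3 CPM with tau fibrils, rose by 0.51 ± 0.13 (adjusted p = 0.00434), and Tlr7, at 146 to 150.0 CPM and 165 to 178 CPM, rose by 0.20 ± 0.050 (adjusted p = 0.00467). The 4 pairs of groups did not overlap. Tlr9 was at 5.94 to 6.81 CPM with vehicle and 5.74 to 6.48 CPM with tau fibrils, and Tlr4, Tlr6, Tlr8 and Tlr13 had log2 values from -0.075 to 0.265 that did not pass the test.

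HT-DNA raised 1 of the 9 members in Cgas-/- cells and lowered 0, against 1.04% and 0.278% of all genes (median -0.07 against 0.01). This was Tlr2, at 189, 219 and 219 CPM, above all 3 vehicle libraries, with a log2 fold change of 0.325 ± 0.059 (adjusted p = 0.00296). Replicate 1 of Cgas-/- HT-DNA differed more from its group than other microglial libraries did. The chi-squared per degree of freedom of counts was 20.5 and 25.6 against replicates 2 and 3, and 3.96 between those. Pairs within the other microglial groups had at most 9.77. Tlr3 stayed at 8.43, 10.1 and 8.99 CPM, across the range of vehicle, with a log2 value of 0.09 ± 0.17 (adjusted p = 0.9). When the other groups were left out of the fit Tlr7 was called as well, in the downward direction, from -0.15 ± 0.051 with all groups (adjusted p = 0.161). Tlr9 and Tlr8 were also lower without passing the test, at -0.34 ± 0.119 and -0.155 ± 0.058 (adjusted p = 0.199 and 0.246, edgeR). For Tlr7, Tlr8 and Tlr9 every HT-DNA library lay below every vehicle library in these cells. Of the 58 pathway genes, 24 rose and 3 fell with tau fibrils and 3 rose and 0 fell with HT-DNA, against the same shares of all genes as for the members. Irf7 rose by 4.83 ± 0.17 with tau fibrils in these cells, from 3.63 to 4.69 CPM up to 113 to 135 CPM. The plot of responses by genotype shows the tau responses of Tlr2 and Tlr3 in both genotypes and the HT-DNA responses of the endosomal receptors in Cgas+/+ cells.

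**Figure D2:**
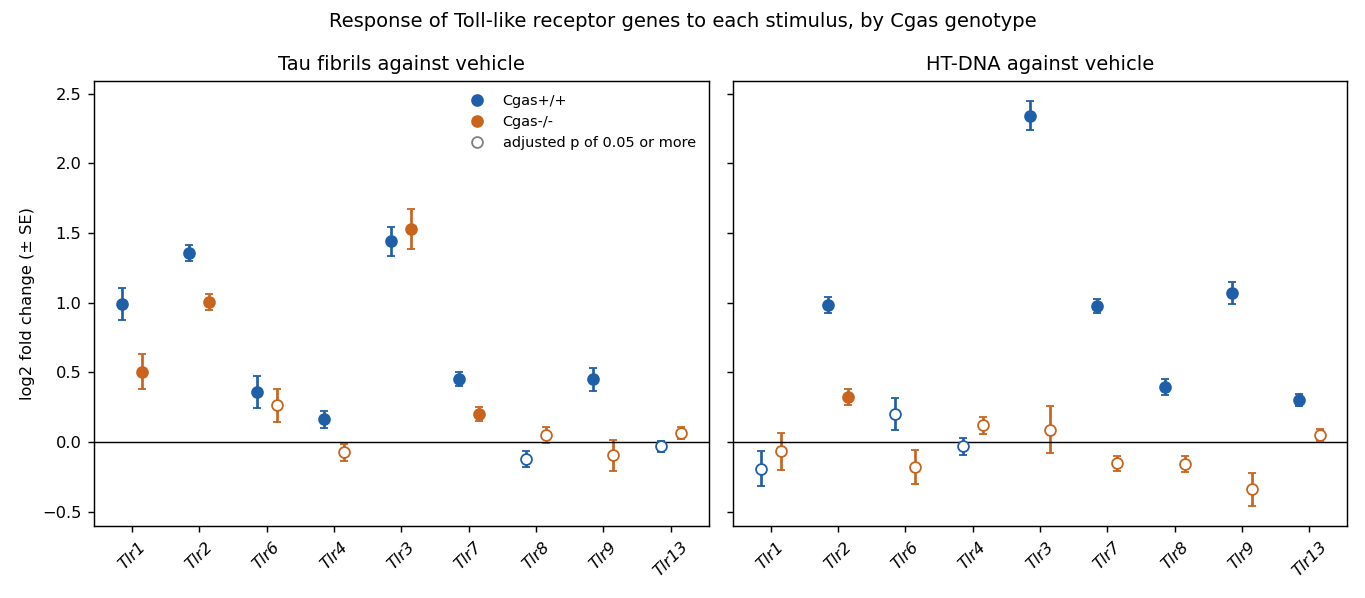
Log2 fold change ± SE (edgeR, 3 libraries a group) of 9 Toll-like receptor genes for tau fibrils against vehicle (left) and HT-DNA against vehicle (right), in Cgas+/+ (blue) and Cgas-/- (orange) microglia; open points did not pass the test. With HT-DNA, Tlr3 stood at 2.34 in Cgas+/+ and 0.09 in Cgas-/- cells, while with tau fibrils it stood at 1.44 and 1.53.

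Whether the responses differed between genotypes was tested as an interaction. For tau fibrils 0 members had a higher and 3 a lower response in Cgas-/- cells, against 3.61% and 3.31% of all genes. These were Tlr2 at -0.35 ± 0.082 (adjusted p = 0.00675), Tlr9 at -0.545 ± 0.14 (adjusted p = 0.0165) and Tlr7 at -0.25 ± 0.070 (adjusted p = 0.0257). Tlr9 lost its call without replicate 1 or 2 of Cgas-/- vehicle or replicate 2 of Cgas-/- tau (adjusted p up to 0.0537), and Tlr7 lost it without any of 5 single libraries (adjusted p up to 0.0906). Tlr3 did not pass the test at 0.09 ± 0.18 (adjusted p = 0.85), nor did Tlr1 at -0.49 ± 0.17 (adjusted p = 0.091). For HT-DNA 0 members had a higher and 6 a lower response in Cgas-/- cells, against 17.4% and 16.6% of all genes. The 6 were Tlr3 at -2.255 ± 0.20 (adjusted p = 5.94e-10), Tlr9 at -1.41 ± 0.145 (7.57e-09), Tlr7 at -1.13 ± 0.071 (9e-13), Tlr2 at -0.66 ± 0.082 (2.75e-07), Tlr8 at -0.55 ± 0.080 (3.12e-06) and Tlr13 at -0.25 ± 0.061 (0.00182), that is, the 5 endosomal receptors tested and Tlr2. Tlr6 was called as well with no filter and with the compared groups alone. It was also called without replicate 2 of Cgas+/+ HT-DNA or replicate 1 of Cgas-/- HT-DNA. Tlr4 was called without replicate 3 of Cgas+/+ vehicle.

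The genotypes also differed at rest. With vehicle, 7 members were lower and 1 was higher in Cgas-/- than in Cgas+/+ cells, against 27.3% and 24.7% of all genes (median -0.38 against -0.01). Tlr3 was lower 4.57-fold (log2 -2.19 ± 0.14, adjusted p = 1.78e-13), and its Cgas-/- libraries lay far below those of Cgas+/+ in the values above. Tlr9, at 6.81, 6.78 and 5.94 CPM in Cgas-/- cells against 17.5 to 20.1 CPM, was lower 2.94-fold (log2 -1.555 ± 0.10, adjusted p = 2.56e-13). Smaller differences were found for Tlr7 (-0.54 ± 0.050), Tlr1 (-0.46 ± 0.13), Tlr13 (-0.38 ± 0.043), Tlr8 (-0.32 ± 0.057) and Tlr2 (-0.17 ± 0.059), of which Tlr2 lost its call without replicate 1 of either group (adjusted p = 0.0856 and 0.0701). Tlr4 alone was higher, at 77.6, 71.2 and 74.6 CPM in Cgas-/- cells, all above the Cgas+/+ range, by 0.285 ± 0.060 (adjusted p = 0.000232).

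With tau fibrils 8 members were lower and 0 higher in Cgas-/- cells, against 26.2% and 25.2% of all genes (median -0.52 against 0.01), and with HT-DNA 8 were lower and 1 higher, against 30.1% and 33.1% (median -0.82 against 0.045). Tlr3 was lower 4.3-fold with tau fibrils and 21.8-fold with HT-DNA, at log2 -2.10 ± 0.11 and -4.45 ± 0.12, and Tlr9 4.29-fold and 7.81-fold, at -2.10 ± 0.096 and -2.97 ± 0.097. Tlr7 stood at 127 to 139 CPM with HT-DNA in Cgas-/- cells against 418 to 428 CPM in Cgas+/+ cells, a log2 difference of -1.67 ± 0.051 (adjusted p = 3.22e-21). Under HT-DNA Tlr4 was higher in Cgas-/- cells, at 86.6, 82.5 and 73.7 CPM, by 0.43 ± 0.060 (adjusted p = 4.06e-07), and under tau fibrils its difference was 0.05 ± 0.059 (adjusted p = 0.537). With tau fibrils the calls of Tlr6 (-0.28 ± 0.11) and Tlr8 (-0.145 ± 0.057) were lost under several alternatives, and with HT-DNA that of Tlr1 (-0.34 ± 0.13) was lost without any of 4 single libraries. Beside these differences, 9 of the 10 microglia markers were lower and 0 higher in Cgas-/- cells with vehicle (median -0.725), with Cx3cr1 at -1.68 ± 0.043. Markers of disease-associated microglia went both ways, with 4 of 7 higher and 2 lower (median 0.21). Their sum with vehicle was 59530 to 62530 CPM in Cgas-/- and 55700 to 56810 CPM in Cgas+/+ libraries. Of the 5 astrocyte markers tested 1 was higher and 2 lower (median -1.31), and all 3 fibroblast markers tested were lower (median -3.83). In Cgas+/+ libraries endothelial markers summed to 87.2 to 98.3 CPM with vehicle, 99.96 to 124.5 CPM with tau fibrils and 276 to 279.5 CPM with HT-DNA. Their sum was 20.6 to 28.3 CPM over the Cgas-/- libraries. Of the 4 endothelial markers only 2 passed the filter on low counts, Flt1 among them. Whether the endothelial sum reflects endothelial cells was not tested. Oligodendrocyte markers summed to 124 to 132 CPM, 130 to 154 CPM and 202.5 to 225 CPM in the same Cgas+/+ groups, and to 70.5 to 82.6 CPM over the Cgas-/- libraries. The part of these markers in the members' differences was not tested.

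**Figure D3:**
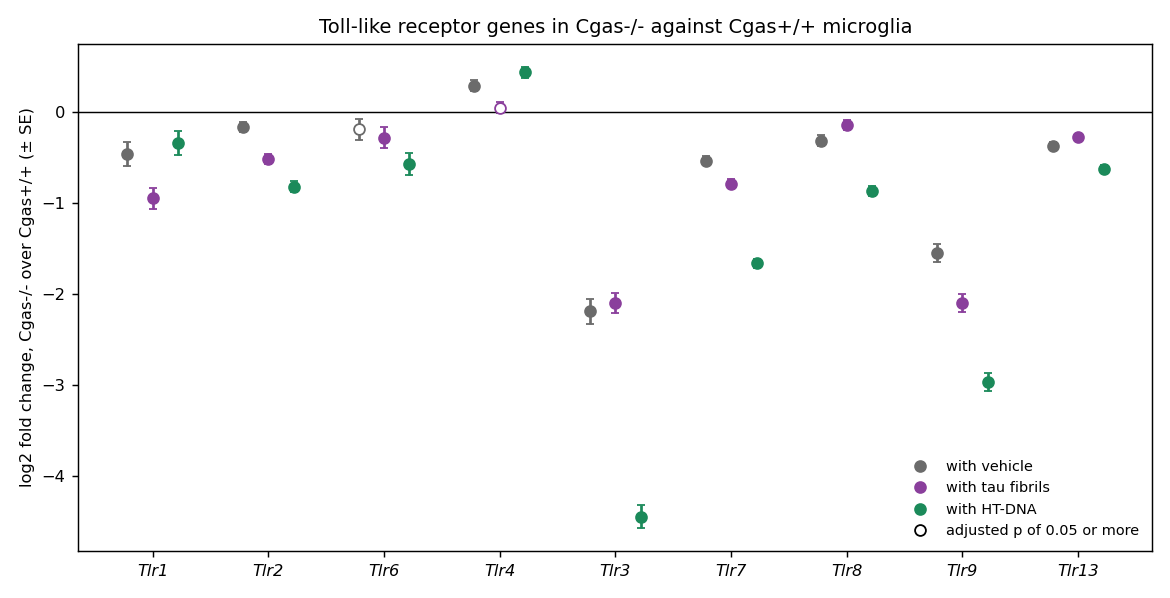
Log2 fold change ± SE (edgeR, 3 libraries a group) of 9 Toll-like receptor genes in Cgas-/- against Cgas+/+ microglia with vehicle (grey), tau fibrils (purple) and HT-DNA (green); open points did not pass the test. Tlr3 and Tlr9 lay lowest under each treatment, at -4.45 and -2.97 with HT-DNA, and Tlr4 lay above 0.

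Over the 6 groups, the order of levels was the same for Tlr7 as for Tlr3 except that the Cgas-/- HT-DNA and vehicle groups changed places. For Tlr3 this order was Cgas-/- vehicle, Cgas-/- HT-DNA, Cgas-/- tau, Cgas+/+ vehicle, Cgas+/+ tau and Cgas+/+ HT-DNA, at means of 8.69, 9.16, 25.01, 39.6, 108 and 201 CPM, and only the first pair of neighbours overlapped. For Tlr2 the order was Cgas-/- vehicle, Cgas+/+ vehicle, Cgas-/- HT-DNA, Cgas-/- tau, Cgas+/+ HT-DNA and Cgas+/+ tau, with overlap between Cgas+/+ vehicle and Cgas-/- HT-DNA and between Cgas-/- tau and Cgas+/+ HT-DNA. Neighbouring groups of Tlr6 mostly overlapped, as did those of Tlr1 below Cgas+/+ tau. Among 11524 genes, those whose log2 CPM ran closest to a member over the 18 libraries were Samhd1 (Pearson r = 0.999), Ankle2 and Etnk1 (both 0.998) for Tlr3, Nfkbie (0.989), Nfkb1 (0.977) and Marcksl1 (0.973) for Tlr2, and, among others, Tcf4 (0.994) and Nsd3 (0.993) for Tlr7. For Tlr9 they were Nuak2 (0.991), Sh3bp2 (0.99) and Sash1 (0.989), for Tlr13 Rmi1 (0.985), Utrn (0.979) and Flt1 (0.975), and for Tlr8 P2ry12 (0.972), Dcaf6 and Dcakd (both 0.944). For Tlr1 they were Arhgdib (0.941), Vti1a (0.933) and Glipr1 (0.915), for Tlr4 Plekha3 (0.933), Rbm3 (0.918) and Ifrd1 (0.903), and for Tlr6 Tm9sf4 (0.892), Cyfip2 (0.872) and Nod2 (0.864). These correlations describe the same 18 libraries and their 6 groups.

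In the hippocampus the family was measured at low levels in bulk tissue, where more cells of a type and more RNA per cell cannot be told apart. In Ntg mice Tlr3 led at 2.42 CPM per kb (group mean), and the other members lay between 0.00658 for Tlr8 and 0.595 for Tlr7. Of the 10 members, 8 were among the 16453 genes tested, with Tlr5 and Tlr8 under the filter on low counts. In P301S hippocampi 2 members were higher and 0 lower, against 1.39% and 0.122% of all genes, and the median log2 fold change of the 8 members was 1.03 against 0.001 for all genes. The 2 that rose were Tlr1 and Tlr2, which form a heterodimer.

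Tlr2 had a lowest, median and highest level of 0.653, 1.27 and 1.92 CPM in Ntg mice, and stood at 12.4, 11.4, 0.561, 1.98, 10.8 and 6.54 CPM in P301S mice 29, 36, 43, 63, 65 and 77. Of the P301S mice, 5 lay above every Ntg mouse, mouse 63 by little, and mouse 43 lay below all of them. The log2 fold change was 2.54 ± 0.55 (adjusted p = 0.0371; exact two-sided permutation test over mice, p = 0.021, n = 7 and 6). Tlr1 had a lowest, median and highest level of 0.0991, 0.357 and 0.456 CPM in Ntg mice, and stood at 3.70, 2.47, 0.175, 0.725, 2.80 and 1.15 CPM in the same P301S mice. Again 5 of 6 lay above every Ntg mouse and mouse 43 lay within their range, with a log2 fold change of 2.49 ± 0.54 (adjusted p = 0.0386; exact permutation p = 0.0122). Both calls were lost when any of the 7 Ntg mice, or P301S mouse 29, 36 or 65, was left out, and also with sex as a covariate (adjusted p = 0.054 for both).

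The other members tested were higher on average without passing the test over all genes. Tlr7 was at 2.06 to 2.74 CPM (median 2.40) in Ntg mice and at 6.94, 6.62, 1.58, 3.20, 6.86 and 5.71 CPM in the P301S mice, with a log2 value of 1.08 ± 0.27 (adjusted p = 0.0613; exact permutation p = 0.0286). Tlr13 was at 1.93 to 2.51 CPM and at 5.82, 5.28, 1.30, 2.80, 6.10 and 4.04 CPM, with 0.97 ± 0.27 (adjusted p = 0.0838; exact permutation p = 0.0385). In both, 5 of 6 P301S mice lay above every Ntg mouse and mouse 43 below all of them. Tlr9 was at 0.645 to 1.18 CPM and at 4.16, 2.09, 1.05, 1.06, 2.20 and 2.15 CPM, with 1.26 ± 0.305 (adjusted p = 0.0536; exact permutation p = 0.00583), and 4 of 6 P301S mice lay above every Ntg mouse.

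Tlr3 ranged from 10.54 to 14.2 CPM in Ntg and 11.2 to 19.2 CPM in P301S mice (log2 0.36 ± 0.12, adjusted p = 0.145; exact permutation p = 0.0274), Tlr4 from 0.653 to 1.70 and 0.736 to 2.54 CPM (0.76 ± 0.28, adjusted p = 0.185; exact permutation p = 0.0408), and Tlr6 from 0.869 to 1.46 and 1.05 to 2.09 CPM (0.34 ± 0.20, adjusted p = 0.447; exact permutation p = 0.11). In these 3 the groups overlapped in 2 or 3 P301S mice. Tlr5, at 0.228 to 0.595 CPM in Ntg and 0.132 to 0.455 CPM in P301S mice, and Tlr8, at 0 to 0.0661 and 0 to 0.412 CPM, were too low to be tested across genes, and their exact permutation p-values were 0.3 and 0.105. The exact p-values were computed for all 10 members and are not adjusted. For the interaction of sex with genotype 0 members passed in either direction, as did 0% of all genes. At an unadjusted p under 0.05 in the same edgeR fit there were 0 of 8 members, against 3897 of the 16453 genes tested.

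**Figure D4:**
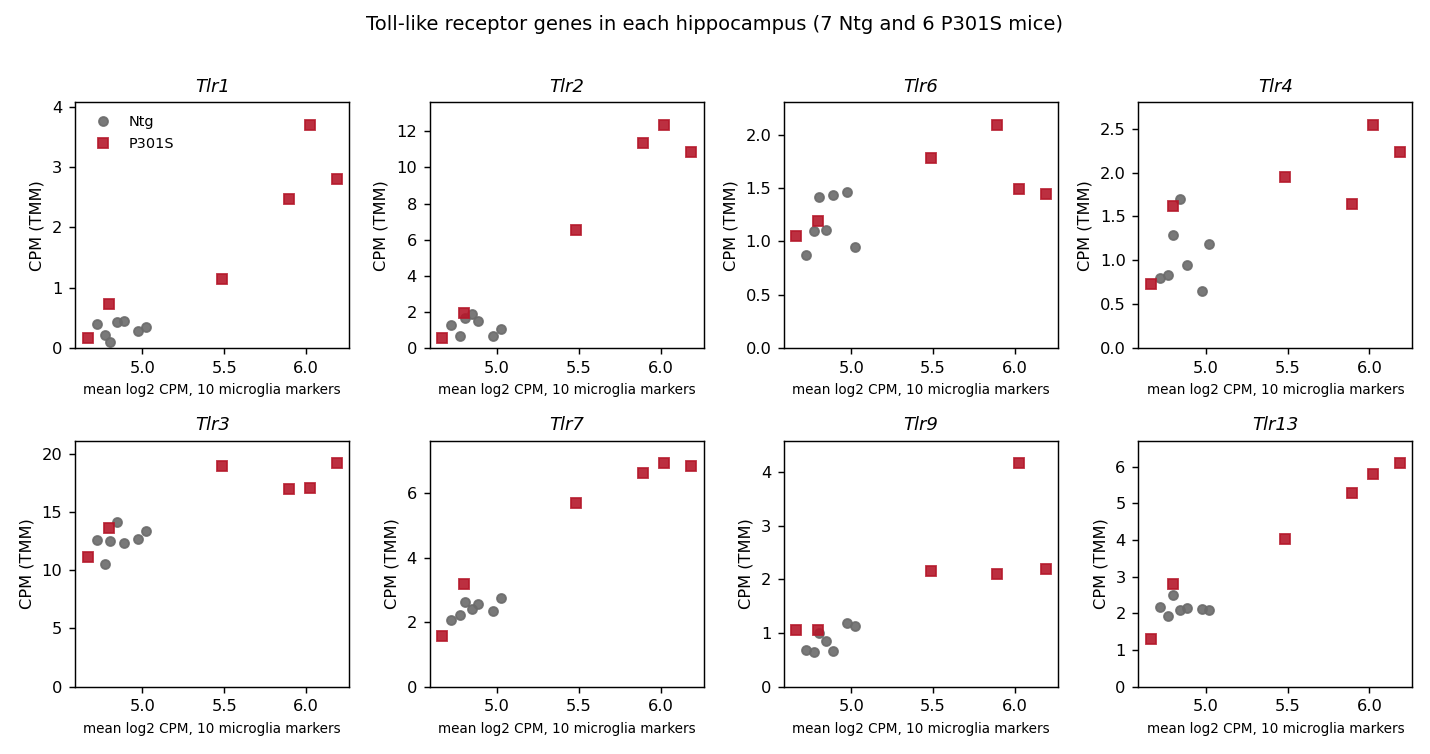
CPM (TMM-scaled, y axis) of the 8 Toll-like receptor genes tested in each hippocampus against the mean log2 CPM of 10 microglia markers in the same mouse (x axis), Ntg (grey circles, n = 7) and P301S (red squares, n = 6); points are mice. P301S mice 29, 36, 65 and 77 lay above every Ntg mouse for Tlr1, Tlr2, Tlr7 and Tlr13, while mouse 43 did not.

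The same mice differed in their microglia markers. The mean log2 CPM of the 10 markers was 4.72 to 5.02 in Ntg mice and 6.02, 5.89, 4.67, 4.80, 6.19 and 5.49 in P301S mice 29, 36, 43, 63, 65 and 77, so that mouse 43 was below and mouse 63 within the Ntg range. Their summed level was 398 to 484 CPM in Ntg and 402 to 1196 CPM in P301S mice, and 2 of the 10 passed the test, C1qa (1.94 ± 0.37) and Trem2 (1.70 ± 0.33). With the marker mean as a covariate 0 members were called, and the log2 values of Tlr1 and Tlr2 became 0.70 ± 0.43 (adjusted p = 0.947) and 0.50 ± 0.44 (adjusted p = 0.995). Every member tested had an adjusted p of 0.944 or more in that edgeR fit. Its share of all genes called was not counted, so the 0 is not read as a result about these receptors. Of the 7 markers of disease-associated microglia 3 rose and 0 fell (median log2 2.13), with a summed level of 104 to 139 CPM in Ntg and 85.6 to 406 CPM in P301S mice. Of the 6 astrocyte markers 1 rose and 0 fell (median log2 0.40), Gfap at 2.22 ± 0.37, with a summed level of 3627 to 4410 CPM and 3703 to 7390 CPM. T cell markers summed to 1.07 to 1.62 CPM in Ntg and 1.09 to 7.93 CPM in P301S mice. The part of these 3 lists in the result was not tested. Without mouse 43 the test called 7 members, and without mouse 63 it called 5. The shares of all genes called in these fits were not counted, so the counts are not read as particular to the members.

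Of the 57 pathway genes tested in the hippocampus, 8 rose and 0 fell in P301S mice (median log2 0.12), against 1.39% and 0.122% of all genes. The count was 3 with sex as a covariate, 0 without Ntg mouse 35, 46, 61, 62, 68 or 71 or P301S mouse 29, 36 or 65, and 16 and 15 without P301S mice 43 and 63. For these fits, too, the shares of all genes were not counted. The related receptor Cd180 rose by 1.76 ± 0.41 and the adaptor Ticam2 by 1.27 ± 0.29. The co-receptors Cd14 (1.73 ± 0.34) and Ly86 (1.71 ± 0.36), which encodes the partner of Cd180, rose, as did the trafficking protein Unc93b1 (1.08 ± 0.25) and the lysosomal protease Ctss (1.69 ± 0.33). Of the transcription factors Irf7 (2.42 ± 0.46) and Rela (0.375 ± 0.081) rose. None of the 16 kinases and ubiquitin ligases, the 9 inhibitors or the 3 endogenous ligands tested passed. With the marker mean as a covariate 0 of the 57 did, and the share of all genes in that fit was not counted. Among 14430 genes, those that ran closest to a member over the 13 hippocampi were Ctsc (Pearson r = 0.986), Tent5c (0.979) and Cybb (0.978) for Tlr2, Ptprc (0.967), Cd84 (0.957) and Cd86 (0.955) for Tlr1, and Ikzf1 (0.983), Tlr13 and Plek (both 0.982) for Tlr7. For Tlr3 they were Gbp7 (0.968), Ddx58 (0.96) and Parp14 (0.956), genes known to respond to interferon, and for Tlr9 Arhgap30 and Sbno2 (both 0.963) and Kcnk6 (0.956). These correlations describe the 13 mice, which share the difference in microglia markers given above.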

How the data were processed

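RNA-seq was performed on 18 primary microglial and 13 hippocampal libraries. The authors deposited 1 table of raw read counts per gene for each experiment. The aligner and counter are not given in the sources used here, and the submitters' notes name build GRCm38, edgeR and limma. The labels name a 3′ library kit for all samples, whereas the methods describe different kits and sequencers for the 2 experiments. Groups were taken from the labels, and 0 columns of no sample were used. Counts were filtered by expression, scaled by TMM and tested with edgeR (4.0.16; limma 3.58.1, R 4.3.3) quasi-likelihood fits, with 1 mean per group over all microglial libraries and Ntg against P301S for hippocampi, and Benjamini-Hochberg adjustment over all genes tested. For single members in hippocampi, exact two-sided permutation tests on log2(CPM + 0.1) enumerated 1716 arrangements, of which the smallest possible p is 0.000583 (Python 3.11.15). Levels per kb used merged exons of the annotation. DESeq2 (1.42.0), other scaling, no filter, a replicate block, covariates and each library left out were the alternatives. All members were named, with pathway genes named as the up to 3 called genes of largest change per role, and the 3 genes of highest Pearson r per member, of which 1 is not reported here. The members and lists were chosen with earlier results of these data known. Exact 3 against 3 tests cannot go below p = 0.1 and were not used.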

Additional observations from a re-analysis of the deposited data

Results flagged for a closer look

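In 3 cases 1 mouse stood far from the rest of its group. P301S mouse 36 had 0.4116 CPM of Tlr8, where the next mouse had 0.152 CPM. P301S mouse 29 had 4.164 CPM of Tlr9, next to 2.198 CPM. Ntg mouse 55 had 2.51 CPM of Tlr13, next to 2.17 CPM. Chance alone flags about 1 in 20 groups.

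In 9 cases the response to a stimulus differed between Cgas-/- and Cgas+/+ microglia by the test of the interaction. For tau fibrils the difference of log2 fold changes (Cgas-/- minus Cgas+/+) was -0.352 for Tlr2, -0.253 for Tlr7 and -0.545 for Tlr9. For HT-DNA it was -0.656 for Tlr2, -2.255 for Tlr3, -1.13 for Tlr7, -0.552 for Tlr8, -1.41 for Tlr9 and -0.25 for Tlr13.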

How the results depend on the processing

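Of 750 alternative fits of the 62 single-member calls, 689 kept direction and call, 61 lost the call and 0 turned direction; RLE scaling lost 0, and DESeq2, no filter and the compared groups alone lost 2 each. Counts of members called, leaving out each library, ranged from 5 to 7 (tau fibrils) and 6 to 6 (HT-DNA) in Cgas+/+ cells, 7 to 8 for tau fibrils against HT-DNA, 4 to 5 (tau fibrils) and 1 to 1 (HT-DNA) in Cgas-/- cells, 7 to 8, 6 to 8 and 8 to 9 for genotype with vehicle, tau fibrils and HT-DNA, and 1 to 4 and 6 to 7 for the interactions; the tau interaction fell to 1 without Cgas-/- tau replicate 2. Pathway counts ranged from 29 to 34, 34 to 37, 23 to 27 and 1 to 4 for the stimuli in the same order. For HT-DNA in Cgas-/- cells the pathway count was 7 with no filter and 5 with the compared groups alone, where the members' count was 2. For P301S the members' count was 5 in DESeq2 (Tlr7, Tlr9 and Tlr13 added) and 0 with either covariate, and 0 to 7 leaving out single mice; the pathway count was 16 in DESeq2, 3 with sex, 0 with the marker mean and 0 to 16 leaving out mice. The sex interaction stayed at 0. Shares of all genes called were not counted for the alternative fits. Replicate numbers did not pair the microglial libraries (same-number r from -0.085 to 0.0823, other pairs from -0.0797 to 0.1037). With the replicate block the members' counts were 7, 6, 8, 4, 1, 8, 8, 9, 3 and 6 in the order above, and it changed no single call. Counts were too low to test Tlr5 in microglia and Tlr5 and Tlr8 in hippocampi. Causes of these changes were not tested.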
